A study of Mus musculus with 2 samples.

Results

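Enzymes of fatty acid, glycerolipid and sphingolipid synthesis were compared between Tc9 and Tc1 cells. These are mouse CD8 T cells polarized in culture toward interleukin 9 production (Tc9) or toward interferon gamma production (Tc1). The members were 55 genes picked by their known enzymatic role, with earlier results of these data known. A gene was measured where the array's annotation gave it a probe set. This held for 54 of the 55, of 19505 genes measured in all. Scd2 was not analysed here. CD8 T cells of spleen and lymph node were activated through CD3 and CD28, polarized for 3 days and kept for 2 more days with 10 ng/mL IL-2. Tc9 polarization used IL-4 at 10 ng/mL with TGF-beta at 1 ng/mL, and interferon gamma was blocked by the antibody XMG1.2 at 20 µg/mL. Tc1 polarization used IL-2 at 10 ng/mL. Total RNA of day 5 went onto 1 Affymetrix array per group, so no difference below has a replicate check or a p-value. The labels give no mouse strain, age or number of animals.

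A proliferating T cell builds new membrane, and the fatty acids it makes anew begin as citrate that leaves the mitochondrion. ATP citrate lyase splits citrate into acetyl-CoA, acetyl-CoA carboxylase makes malonyl-CoA, and fatty acid synthase assembles palmitate. Elongases and desaturases then adjust chain length and double bonds. The acyl chains go onto glycerol phosphate to give phosphatidic acid, the common precursor of triglycerides and phospholipids, or onto serine to begin the sphingolipids. Phospholipid chains are later exchanged by lysophospholipid acyltransferases. Activated CD8 T cells are known to switch on much of this pathway through the SREBP transcription factors.

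Differences are log2 signal on the Tc9 array minus log2 signal on the Tc1 array. A gene counted as detectable where its brighter array reached a log2 signal of 6.43, the median of all gene values, and 10147 genes did so. Of these, 2.62% were at least 2-fold higher on the Tc9 array and 2.79% were at least 2-fold lower. The size rule describes this pair of arrays, not the culture conditions. Among 1158 detectable positive control probe sets the median difference was 0.11, and 1.30% were past 2-fold in either direction. Among 585 detectable negative controls the median was -0.37, lower on the Tc9 array, and 16.2% were past 2-fold. The second sample is titled Tc9 while its source name reads Tc1. It had the higher Il9 signal (8.45, against 4.82 on the Tc1 array) and the lower Ifng signal (7.57, against 9.28). All 9 CD8 T cell markers measured were detectable on both arrays, with Cd8a at 11.93 on the Tc9 array and 12.19 on the Tc1 array.

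Markers of other cells were read beside these genes. Of 10 B cell markers measured, 9 were detectable and all 9 had a lower signal on the Tc9 array, although Ebf1, at -0.01, turned when the arrays were median centred. Their summed intensity over all 10 was 3522 on the Tc9 array and 4974 on the Tc1 array. For monocytes and macrophages 4 of 9 markers were detectable, with sums of 1032 on the Tc9 array and 1077 on the Tc1 array. For dendritic cells 2 of 8 were detectable, with sums of 1056 on the Tc9 array and 2875 on the Tc1 array. Bst2 alone, which interferons also induce, made up most of both, and the other 7 summed to 241.4 on the Tc9 array and 261.8 on the Tc1 array. Of 4 genes listed for NK cells only Kit was detectable, with 6.57 on the Tc9 array against the threshold of 6.43. Ncr1, Klrb1c and Klrc1 stayed under the threshold on both arrays. For neutrophils 1 of 5 was detectable. No adipocyte marker of 5 reached the threshold on either array. No marker intensity was at 0, and the part of these cells in the differences below was not tested. In bulk RNA, fewer cells of a type and less RNA per cell cannot be told apart.

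Most lipid synthesis genes differed by less than 2-fold between the arrays, as did most of all detectable genes, and a few differed by more. Of the 54 measured members, 48 were detectable. The 3 at least 2-fold higher on the Tc9 array were Scd1, Mboat1 and Mboat2, a desaturase and a pair of lysophospholipid acyltransferases. The 1 at least 2-fold lower was Pcyt1a, which controls the rate of phosphatidylcholine synthesis. These are 6.25% and 2.08% of the detectable members, beside 2.62% and 2.79% of all detectable genes, and both shares rest on very few genes. Gpam, higher, and Agpat4, lower, lay just short of 2-fold. Of the 48, 24 genes differed by less than 1.2-fold, a share that was not computed over all genes. Past 1.5-fold in either direction were 6 of the 48, beside 14.6% of all detectable genes. The median difference of the detectable members was 0.15, against 0.05 over all detectable genes. A positive difference was seen in 32 of the 48 (66.7%), against 56.3% of all detectable genes.

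**Figure D1:**
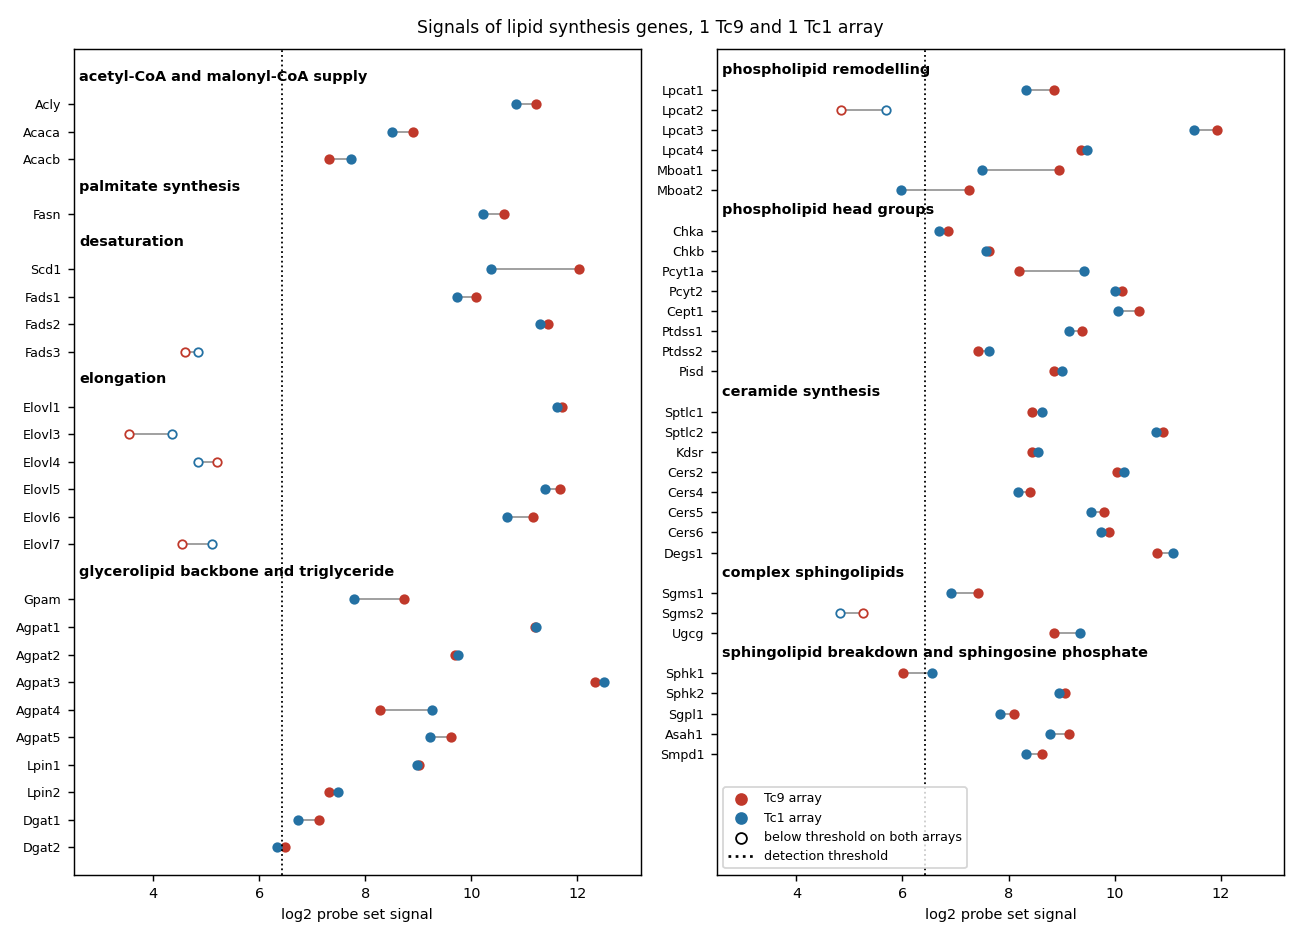
Log2 probe set signal (x axis) of the 54 measured members, grouped by role, on the Tc9 array (red) and the Tc1 array (blue). The dotted line is the detection threshold at 6.43, and open circles mark the 6 members below it on both arrays. The widest gaps among detectable members are those of Scd1, Mboat1, Mboat2 and Pcyt1a.

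Most fatty acid synthesis genes were higher on the Tc9 array, Scd1 by 3.16-fold and the others by small amounts. Counting supply, palmitate synthesis, desaturation and elongation together, 9 of 10 detectable members had a positive difference, where 56.3% of all detectable genes did, and the median was 0.37. Acly, the citrate lyase, had an intensity of 2386 on the Tc9 array and 1834 on the Tc1 array, a 1.30-fold difference. Acaca, the cytosolic acetyl-CoA carboxylase, had 476.2 on the Tc9 array and 364.7 on the Tc1 array, which is 1.31-fold higher. Fasn, the fatty acid synthase, had 1562 on the Tc9 array and 1198 on the Tc1 array, or 1.30-fold higher. The 3 enzymes that act one after the other from citrate to palmitate thus differed by nearly the same small factor. Differences of this size were common. Of the 10147 detectable genes, 1639, 1606 and 1619 had a larger positive difference than Acly, Acaca and Fasn. Among the 10, the negative exception was Acacb, the carboxylase at the mitochondrial membrane whose malonyl-CoA restrains fatty acid oxidation. It had 159.0 on the Tc9 array and 213.2 on the Tc1 array, 1.34-fold lower.

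Scd1 had the largest positive difference of all 48 detectable members. This enzyme places the first double bond into stearate and palmitate, giving oleate and palmitoleate. Its intensity was 4197 on the Tc9 array and 1329 on the Tc1 array, 3.16-fold higher. Only 101 of the 10147 detectable genes had a larger positive difference. Among the 2195 genes with a mean log2 signal of 10 or above, the central 90% of differences ran from -0.52 to 0.51 and 2.51% passed 2-fold. Scd1, at 1.66, was the sole member of the 15 in that signal range that lay outside it. Its neighbours in the desaturase family did not share this size of difference. Fads1 and Fads2, which desaturate polyunsaturated chains, differed by 0.35 and 0.15. Fads3 stayed under the threshold on each array, as were Scd3 and Scd4, paralogues of Scd1 from the wider pathway list.

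Of the 6 elongases, 3 were detectable and all 3 had a positive difference. Elovl6, which extends palmitate to stearate and so makes the substrate of Scd1, had 2300 on the Tc9 array and 1635 on the Tc1 array, 1.41-fold higher. Elovl5, which extends polyunsaturated chains, had 3260 on the Tc9 array and 2663 on the Tc1 array, 1.22-fold higher. Elovl1, which makes very long saturated chains for sphingolipids, differed by 0.10. Elovl3, Elovl4 and Elovl7 stayed under the threshold on each array, and no fold is given for them.

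**Figure D2:**
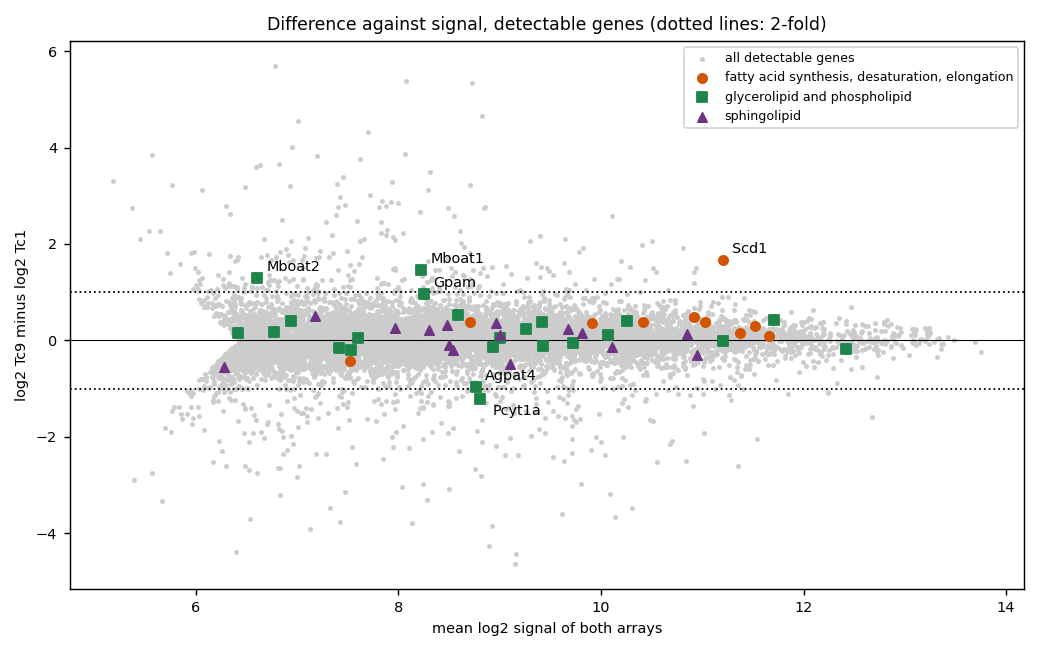
Log2 Tc9 minus log2 Tc1 (y axis) against the mean log2 signal of both arrays (x axis) for all 10147 detectable genes (grey) and the 48 detectable members (coloured by branch of the pathway). Scd1 stands outside the narrow band of bright genes, and the other named members lie at lower signal, where the band is wider.

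Assembly of glycerolipids showed a pair of larger differences in opposite directions within the same short route. Gpam, the mitochondrial glycerol phosphate acyltransferase that begins the route, had 425.4 on the Tc9 array and 219.5 on the Tc1 array, 1.94-fold higher. Agpat4, one of the acyltransferases of the next step, which make phosphatidic acid, had 309.8 on the Tc9 array and 608.7 on the Tc1 array, 1.96-fold lower. Both lay outside the central 90% of differences, -0.61 to 0.67, of the 4370 genes with a mean log2 signal between 8 and 10. The other acyltransferases of that step did not follow Agpat4. Agpat5 differed by 0.39, Agpat1 by -0.01, Agpat2 by -0.06 and Agpat3 by -0.18. Nor did Gpat3 and Gpat4, related genes for the same first step as Gpam, follow Gpam, with differences of 0.06 and 0.01. The phosphatidate phosphatases Lpin1 and Lpin2 differed by 0.04 and -0.17. Dgat1 and Dgat2 catalyse the last step to triglyceride. Dgat1 had log2 signals of 7.13 on the Tc9 array and 6.74 on the Tc1 array, 1.31-fold higher, and Dgat2 stood at the threshold, with 6.48 on the Tc9 array and 6.34 on the Tc1 array. The 10 genes of this group, all detectable, had a median difference of 0.01, with 5 positive and 5 negative. Agpat1 and Agpat2 turned positive under median centring and Lpin1 turned negative under quantile normalization.

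Genes that exchange the acyl chains of finished phospholipids held the largest positive median of any member group, 0.52 over 5 detectable genes, though none of their differences has a replicate check. Mboat1, known in mouse as an acyltransferase of lysophosphatidylserine and lysophosphatidylethanolamine that prefers oleate, had 494.8 on the Tc9 array and 180.8 on the Tc1 array, 2.74-fold higher. Mboat2, a related enzyme that acts on lysophosphatidylethanolamine and lysophosphatidylcholine, had 151.8 on the Tc9 array and 62.4 on the Tc1 array. The Tc1 signal lay below the threshold, so Mboat2 was at least 1.76-fold higher, and it passes 2-fold only on its measured values. Lpcat3, which puts polyunsaturated chains into phosphatidylcholine, had 3880 on the Tc9 array and 2880 on the Tc1 array, 1.35-fold higher. Lpcat1, which puts in saturated chains, had 460.7 on the Tc9 array and 322.1 on the Tc1 array, 1.43-fold higher. Lpcat4 differed by -0.11, and Lpcat2 stayed under the threshold on each array.

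The head group enzymes stayed close together except for Pcyt1a. Pcyt1a makes CDP-choline, the rate-limiting step of the main route to phosphatidylcholine. Its intensity was 292.5 on the Tc9 array and 681.8 on the Tc1 array, 2.33-fold lower, and 197 of the 10147 detectable genes had a more negative difference. The steps on either side of it differed little. Choline kinases Chka and Chkb, which come before it, differed by 0.18 and 0.04. Cept1, which attaches the head group after it, had 1401 on the Tc9 array and 1067 on the Tc1 array, 1.31-fold higher. Chpt1 and Selenoi, related genes that also attach head groups, went the other way, with differences of -0.18 and -0.26. Pcyt2, the corresponding enzyme for ethanolamine, differed by 0.12. The phosphatidylserine synthases Ptdss1 and Ptdss2 differed by 0.24 and -0.19, and the mitochondrial decarboxylase Pisd, which turns phosphatidylserine into phosphatidylethanolamine, by -0.15.

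The regions upstream of the glycerolipid genes that differed most are shown so that the letters can be read beside the signals. RefSeq promoter windows (GRCm38.p6, 250 bases before to 50 after a start site) were given for 45 of the 55 members, Scd1 not being among them. Each was searched on both strands for the SREBP form TCACNCCAC, the NF-Y site CCAAT and the E-box CACGTG. The longer SREBP site, which is TCACCCCAC with an A before it and so overlaps the shorter form, and the LXR repeat, AGGTCA given again after 4 bases of any kind, were searched as well. A gene can have several windows, and Pcyt1a had 3 and Gpam 2. The one printed was the first of those with the most of these motifs, so it was picked for its matches. The 250 bases before the start site are printed 5′ to 3′, and capitals mark a match, which reads ATTGG where CCAAT lies on the other strand. They are Mboat1 (chr13:30136240-30136489, plus strand), Mboat2 (chr12:24831349-24831598, plus strand), Gpam (chr19:55127239-55127488, minus strand), Agpat4 (chr17:12119034-12119283, plus strand) and Pcyt1a (chr16:32430671-32430920, plus strand).
Mboat1 upstream region: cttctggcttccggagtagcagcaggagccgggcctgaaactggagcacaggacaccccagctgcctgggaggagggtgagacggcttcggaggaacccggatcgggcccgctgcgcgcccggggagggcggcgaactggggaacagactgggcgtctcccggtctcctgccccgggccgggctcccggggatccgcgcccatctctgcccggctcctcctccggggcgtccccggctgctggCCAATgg
Mboat2 upstream region: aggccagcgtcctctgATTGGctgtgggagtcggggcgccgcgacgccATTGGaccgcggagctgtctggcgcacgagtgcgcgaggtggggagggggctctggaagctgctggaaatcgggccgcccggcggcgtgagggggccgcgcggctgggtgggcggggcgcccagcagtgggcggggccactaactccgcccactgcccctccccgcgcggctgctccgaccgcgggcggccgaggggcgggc
Gpam upstream region: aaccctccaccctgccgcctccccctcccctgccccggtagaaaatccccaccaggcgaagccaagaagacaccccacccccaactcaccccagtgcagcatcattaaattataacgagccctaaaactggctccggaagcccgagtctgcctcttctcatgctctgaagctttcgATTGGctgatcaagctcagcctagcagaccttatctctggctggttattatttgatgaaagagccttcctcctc
Agpat4 upstream region: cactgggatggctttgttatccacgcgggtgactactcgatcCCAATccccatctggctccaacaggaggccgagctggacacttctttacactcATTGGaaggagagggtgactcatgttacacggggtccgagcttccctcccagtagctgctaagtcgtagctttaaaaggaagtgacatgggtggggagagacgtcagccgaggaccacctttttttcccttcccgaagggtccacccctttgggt
Pcyt1a upstream region: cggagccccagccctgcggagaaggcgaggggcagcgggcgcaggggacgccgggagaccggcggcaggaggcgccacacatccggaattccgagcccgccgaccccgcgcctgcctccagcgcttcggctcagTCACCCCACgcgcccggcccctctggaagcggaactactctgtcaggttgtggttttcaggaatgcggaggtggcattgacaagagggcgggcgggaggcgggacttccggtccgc
The window of Pcyt1a holds TCACCCCAC, its first base 116 bases before the start site, and Pcyt1a was the 1 member of 45 with this form. Of all 27025 genes with a window, 1.44% held it. The longer SREBP site and the LXR repeat were in no member window, and they occur in 0.0913% and 0.0152% of all windows. The E-box was in 8 of 45 members (17.8%), none of the 5 shown among them, and in 8.09% of all genes with a window. Mboat1, Mboat2, Gpam and Agpat4 hold CCAAT on one strand or the other, Gpam in the printed window only. That motif is common, with 37.4% of all 32851 windows holding it. By gene it was in 29 of 45 members (64.4%) and in 41.1% of all 27025 genes with a window. Among protein-coding genes alone the share was 42.3%, and 8.91% for the E-box. A gene counted where any of its windows matched. The 45 members had 69 windows and the 27025 genes had 32851, and this difference in windows per gene was not adjusted for. Agpat4, lower on the Tc9 array, thus shares CCAAT with the 3 genes that were higher. A match of letters is a description of the window, not evidence of binding.

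None of the 15 detectable sphingolipid genes passed 2-fold in either direction, a count near the background, since 2.62% of all detectable genes were as much higher and 2.79% as much lower. The genes on the route to ceramide lay close together. The 8 ceramide synthesis genes were all detectable, with differences between -0.29 and 0.24 and a median of 0.02. The central 90% of all detectable genes ran from -0.71 to 0.73. Of the 8, 7 differed by less than 1.2-fold, but the share of all genes under 1.2-fold was not computed. Sptlc1 and Sptlc2, subunits of the palmitoyltransferase that begins the pathway, differed by -0.20 and 0.13. Kdsr, the next reductase, differed by -0.10 and turned positive with centring over all probe sets. The ceramide synthases Cers2, Cers4, Cers5 and Cers6, which add the second acyl chain, differed by -0.14, 0.22, 0.24 and 0.16. Degs1, the desaturase that completes ceramide, had 1780 on the Tc9 array and 2183 on the Tc1 array, 1.23-fold lower.

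Beyond ceramide the differences were somewhat wider. Sgms1, which makes sphingomyelin in the Golgi, had log2 signals of 7.43 on the Tc9 array and 6.92 on the Tc1 array, 1.42-fold higher. Ugcg, which makes glucosylceramide from the same ceramide, had 8.86 on the Tc9 array and 9.34 on the Tc1 array, 1.40-fold lower. Sgms2 stayed under the threshold on each array. Among breakdown enzymes, Asah1, the lysosomal ceramidase, differed by 0.37, Smpd1, the lysosomal sphingomyelinase, by 0.31, and Sgpl1, the sphingosine phosphate lyase, by 0.26. Of the sphingosine kinases, Sphk2 differed by 0.11. Sphk1 had an intensity of 64.1 on the Tc9 array, under the threshold, and 94.2 on the Tc1 array, and was lower by at least 1.09-fold.

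**Figure D3:**
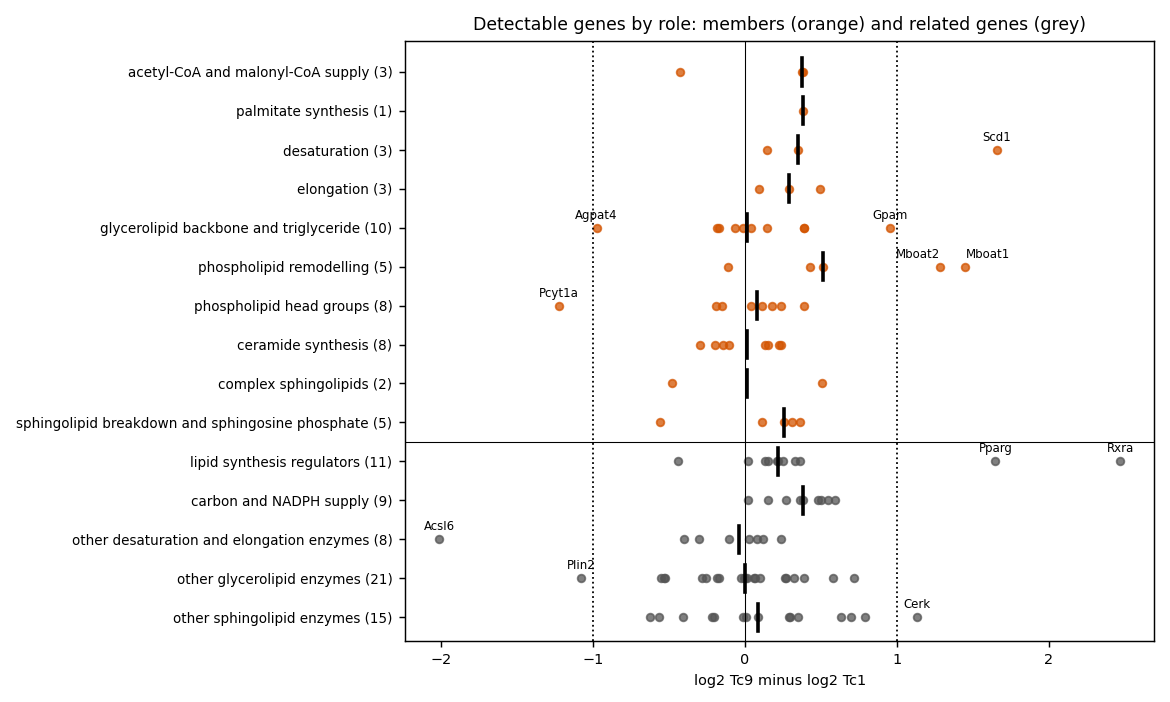
Log2 Tc9 minus log2 Tc1 (x axis) of each detectable gene, in rows by role, for members (orange) and related genes of the same pathways (grey). Vertical bars are row medians, dotted lines mark 2-fold, and the number in brackets is the count of detectable genes. Ceramide synthesis genes lie close to 0, while most genes of the fatty acid rows and of carbon and NADPH supply lie to the right of it.

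Further genes of the same pathways were taken from a list of 102 made by function, also with earlier results of these data known. Of these, 92 had a probe set and 64 were detectable. On the Tc9 array 3 were at least 2-fold higher and 2 were at least 2-fold lower, or 4.69% and 3.12% of the 64, beside 2.62% and 2.79% of all detectable genes. The 3 become 2 with dim values at the threshold, since Pparg was dim on the Tc1 array. The median difference of the 64 was 0.11. The related group listed under carbon and NADPH supply had positive differences in 9 of 9 detectable genes, with a median of 0.39. Of all detectable genes, 56.3% had a positive difference. The supply group also holds Mcat, Oxsm and Mecr, enzymes of mitochondrial fatty acid synthesis, which differed by 0.36, 0.16 and 0.02. Mecr turned negative under quantile normalization. Slc25a1, the carrier that exports citrate from mitochondria, had 2515 on the Tc9 array and 1775 on the Tc1 array, 1.42-fold higher. Idh1, a cytosolic source of NADPH, had 288.7 on the Tc9 array and 191.0 on the Tc1 array, 1.51-fold higher. Other desaturation and elongation enzymes did not lean one way, with 4 positive and 4 negative of 8 detectable and a median of -0.04. Among them Hacd1 and Hacd2, dehydratases of the elongation cycle, differed by -0.30 and -0.40, and Hacd3 of the same family by 0.24. Tecr and Hsd17b12, other enzymes of that cycle, differed by 0.08 and 0.03.

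Transcriptional regulators of lipid synthesis held SREBP pathway genes with small differences and a pair of nuclear receptors with larger ones. Srebf2, the SREBP best known for cholesterol genes, had 5378 on the Tc9 array and 5295 on the Tc1 array, 1.02-fold. Scap, the escort of SREBP, differed by 0.21. Insig1, which retains that escort and is itself an SREBP target, differed by 0.36. Rxra, the retinoid X receptor that pairs with LXR and PPAR, had 455.4 on the Tc9 array and 82.1 on the Tc1 array, just under the threshold of 86.3, and was at least 5.28-fold higher. Pparg, a fatty acid sensing nuclear receptor known as a driver of fat cell differentiation, had 147.9 on the Tc9 array and 47.1 on the Tc1 array, at least 1.71-fold higher. Nr1h3, which encodes LXR alpha, stayed under the threshold on each array. Srebf1 and Nr1h2 were not analysed here.

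Of the storage and activation genes, 2 were the related genes at least 2-fold lower on the Tc9 array. Plin2, which coats lipid droplets, had 446.1 on the Tc9 array and 939.3 on the Tc1 array, 2.11-fold lower. Acsl6, an acyl-CoA synthetase, had 57.8 on the Tc9 array and 232.7 on the Tc1 array, at least 2.70-fold lower. Lclat1, a lysophospholipid acyltransferase that acts on cardiolipin precursors, was 1.65-fold higher, with 1808 on the Tc9 array and 1099 on the Tc1 array. Cerk, which phosphorylates ceramide, had 624.4 on the Tc9 array and 284.0 on the Tc1 array, 2.20-fold higher. Smpd2, a neutral sphingomyelinase, was 1.73-fold higher, B4galt5, which makes lactosylceramide, 1.62-fold higher, and Gba2, a non-lysosomal glucosylceramidase, 1.55-fold higher. Smpdl3b, a membrane-bound relative of the sphingomyelinases, was 1.54-fold lower. With Rxra, Pparg and Idh1 these made up the 11 related genes past 1.5-fold, of 64 detectable. Of all detectable genes, 14.6% were past 1.5-fold, so this count is near the background.

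The scale of the arrays shifts these differences slightly but leaves the leading genes in place. Centring each array on the median of all its probe sets raised the median of all genes by 0.11. The split of all detectable genes past 2-fold, 266 higher and 283 lower (48.5% higher), then became 329 higher and 229 lower (59.0% higher). Under the 8 other ways of processing, Scd1 had differences between 1.65 and 1.77 and Mboat1 between 1.38 and 1.56. Pcyt1a lay between -1.28 and -1.11, and each of these genes was past 2-fold in all 8. Not all 8 are checks on them. Dim values at the threshold, the negative control threshold, no filter and the mean over probe sets left their values unchanged. Both median centrings only added a constant. Mboat2 ranged from 0.82, with its dim Tc1 value set at the threshold, to 1.39. Gpam ranged from 0.90 to 1.06 and passed 2-fold in 2 of the 8, both of them median centrings. Agpat4 ranged from -1.04 to -0.87 and passed in 1, quantile normalization. The 9 of 10 detectable fatty acid synthesis, desaturation and elongation genes with a positive difference were 9 of 10 under each setting that keeps the filter on dim genes, with Acacb the exception each time. Without that filter they were 10 of 14, with Elovl3, Elovl7 and Fads3 also negative.

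**Figure D4:**
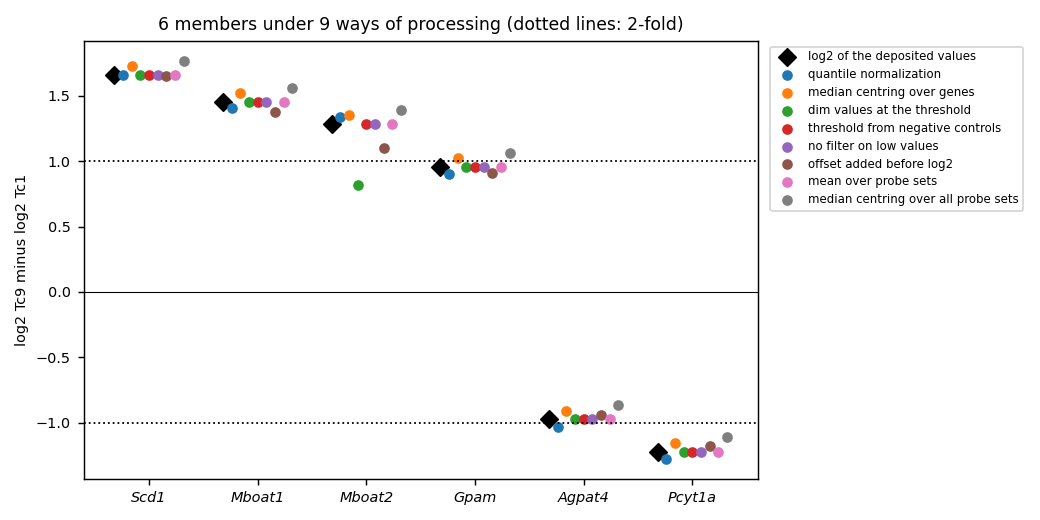
Log2 Tc9 minus log2 Tc1 (y axis) of the 6 members with the largest differences, from the deposited values (black diamonds) and under 8 other ways of processing (coloured circles). Dotted lines mark 2-fold. Scd1, Mboat1 and Pcyt1a stay past it under each setting, Mboat2 drops below it at 0.82 in 1, and Gpam and Agpat4 lie at the line.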

How the data were processed

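The authors deposited 1 linear intensity per Affymetrix probe set and array. Extraction was with Trizol and labelling with biotin, per the labels' protocols. How probes were background corrected, summarized and normalized is not given in the sources used here. Medians of 53.1 on the Tc9 array and 57.2 on the Tc1 array, and upper quartiles of 346.2 and 330.5 in the same order, lay close, so the values were used as log2 intensity without further normalization. Probe sets were named from the platform annotation. For the 55 genes with several, none of them a member, the one with the higher mean was taken. A gene dim on 1 array has its fold against the threshold, given as "at least". The number of arrays limits the precision.

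Members, lists and thresholds were chosen with earlier results of these data known. Every member was to be named, and of related genes 6 regulators (Srebf1, Srebf2, Scap, Insig1, Nr1h2 and Nr1h3) and those past 1.5-fold. A few others are named for context, chosen after their values were seen. Alternatives were quantile normalization, median centring over genes or over all probe sets (the last chosen after seeing the data), dim values at the threshold, a threshold at the 95th percentile of negative controls, no filter, an added 16 and the mean over probe sets. Counting was tested on simulated data. Python 3.11.15, numpy 2.4.6 and pandas 2.3.3 were used, and promoter sequences are from RefSeq.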

Additional observations from a re-analysis of the deposited data

How the results depend on the processing

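With 1 array per group, no alternative can show replicate error, and the results describe these arrays. No paired analysis was possible because each group has 1 array. Of 40 summary values under 8 alternatives, 37 moved by no more than 1.5-fold. For the median of the members this rule is loose, since it allows a shift larger than the median itself. Part of the 40 could not move. Changing or dropping the threshold leaves that median as it is, and no member has several probe sets to average. The count of members at least 2-fold lower became 2 under quantile normalization, where Agpat4 joined Pcyt1a. Related genes at least 2-fold higher numbered 5 without the filter on dim genes, and those lower numbered 1 with centring over all probe sets, where Plin2 fell short of 2-fold. With dim values at the threshold, members at least 2-fold higher numbered 2 rather than 3, and related genes likewise 2 rather than 3. Both median centrings gave 4 members, with Gpam. The median of all 54 measured members lay between 0.12 and 0.26 over the alternatives, against 0.15. Of 504 values of single named genes, 503 moved by less than 1.5-fold, none past 2-fold changed sign, and Pparg came to 0.78 with its dim Tc1 value at the threshold. Changing or dropping the threshold leaves a gene's value as it is, so part of these 504 values could not move. Signal over background limits the 6 members and 28 related genes that were below the threshold on both arrays.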
